A study of Mus musculus with 6 samples.

Results

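The voltage-gated sodium and calcium channel genes of the mouse brain were compared between Bahd1-KO and Bahd1-WT animals. The members were taken by name, as every gene of the count table called Scn followed by a number and a or b, or Cacna, Cacnb or Cacng followed by its subunit code. This rule found 40 genes of the 53801 in the table. Of these, 20 encode pore-forming subunits and 20 encode auxiliary subunits, and all 40 reached the sum of 10 counts over the 6 samples that was required for testing, with Scn4a just above this limit. The data were RNA-seq read counts from a brain hemisphere of each of 3 Bahd1-KO mice (Bahd1-/-) and 3 Bahd1-WT mice (Bahd1+/+), all of strain C57BL/6 and about 70 weeks old. The study states that its mice were males. Both copies of Bahd1, which codes for a heterochromatin protein, are inactivated in every cell from conception, so the comparison does not separate effects of development from those in the adult brain. The study states that some knockouts die around birth, so the adults compared here are survivors.

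Voltage-gated sodium channels open within a fraction of a millisecond when a membrane depolarises and carry the rising phase of the action potential, and the pore-forming alpha subunit holds the voltage sensors, the pore and the inactivation gate. Voltage-gated calcium channels turn depolarisation into calcium entry. L-type channels couple it to contraction and gene expression, P/Q-, N- and R-type channels to transmitter release, and T-type channels open near the resting potential and support burst firing. Sodium channel beta subunits and calcium channel alpha2delta and beta subunits bring the pore to the membrane and tune its gating, and most gamma subunits of the brain are better known as transmembrane partners of AMPA receptors.

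Depth ranged from 42297150 counts in Bahd1-KO replicate 1 to 93557948 in Bahd1-KO replicate 2. The targeted gene was read first. Counts of Bahd1 were 1383, 844 and 1099 where both copies are intact and 0, 14 and 1 in the knockouts, so each library had the level its label calls for. The summed level of 6 neuronal markers was 6710 to 7760 CPM (counts scaled to the library total) in Bahd1-WT and 6090 to 7490 in Bahd1-KO. Of these, Slc17a7 was higher and Syt1 lower without overlap, at log2 fold changes of 0.64 and -0.37, and Rbfox3 had 0.78 with overlap. Snap25, Stmn2 and Gad1 overlapped. With an offset for GC content and length, described further on, Rbfox3 was lower (-0.46) without overlap. Snap25 (0.41) and Stmn2 (0.62) were then higher without overlap, while Syt1, Slc17a7 and Gad1 overlapped. The summed markers of some other cell types did not overlap between genotypes, with 251 to 350 CPM in Bahd1-WT and 435 to 1060 in Bahd1-KO for 4 choroid plexus markers, 2010 to 2240 against 1700 to 1970 for 5 astrocyte markers, and 3.14 to 5.63 against 6.39 to 13.1 for 4 heart muscle markers. The genes within these lists did not all move the same way. Ttr, the main choroid plexus transcript, had a mean of 269 CPM in Bahd1-WT and 658 in Bahd1-KO, while Kl was lower without overlap at 34.5 and 26.1, and Folr1 and Aqp1 overlapped. Of the astrocyte genes, Slc1a3 (1180 and 913 CPM) and Aqp4 (419 and 303) were lower without overlap and Gja1 had a log2 fold change of -0.23, while Aldh1l1 was higher without overlap at 26.7 and 54.7 and Gfap was higher at an unadjusted p under 0.05. Of the heart muscle genes, Mybpc3 (3.26 and 7.96 CPM) and Tnni3 (0.481 and 1.31) were higher without overlap and Nppa had a log2 fold change of 0.68, while Myh6 overlapped, its Bahd1-WT counts being 43, 9 and 2 and those of Bahd1-KO 3, 9 and 3. Skeletal muscle and lung markers, given with the genes they touch, did not overlap either. With the offset, the median log2 fold change of the astrocyte markers went from -0.23 to 0.01. It went from 0.99 to 0.05 over heart muscle and from 0.52 to -0.16 over choroid plexus markers. Over skeletal muscle markers it went from 1.65 to 0.98, and over lung markers from -7.79 to -8.65. The part of these cell types in the values of the members was not tested. In the text below, values given as a triplet are those of replicates 1, 2 and 3 of the genotype, CPM are scaled by TMM, and levels of different genes are compared as CPM per kb of exon. In bulk tissue, fewer cells of a type and less RNA per cell cannot be told apart.

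By edgeR's quasi-likelihood test with Benjamini-Hochberg adjustment and a threshold of 0.05 with a fold change of at least 2, 0 of the 40 genes were DEGs, against 2 of the 23975 genes tested (0.00834%). At an unadjusted p under 0.05, 12 members were higher in Bahd1-KO, which is 30% of them where 19.9% of all genes tested were, and 6 were lower, where 12% of all genes were. At an adjusted p under 0.1, 11 members were higher and 2 lower, against 14.7% and 4.77% of all genes. Bahd1-KO and Bahd1-WT samples did not overlap in 11 members with higher and 10 with lower values, against 20.6% and 19.3% of all genes. The median log2 fold change (Bahd1-KO over Bahd1-WT) was 0.20 over the members and -0.06 over all genes tested. DESeq2 with a normal prior on fold changes called 8 members higher and 0 lower, where it called 9.61% and 0.909% of all genes. The calcium channel genes among them were Cacna1s, Cacna1g, Cacna1h, Cacna1i, Cacnb1, Cacnb3 and Cacng8. Leaving out Bahd1-KO replicate 2 brought that number to 0, where 754 of 23038 genes (3.27%) were then called in place of 2522. With edgeR, leaving out Bahd1-KO replicate 1 brought the number of DEGs among the members to 11, while 3988 of 23690 genes (16.8%) were then DEGs. In the same test, leaving out Bahd1-WT replicate 2 brought the members lower at an unadjusted p under 0.05 from 6 to 2 and those higher from 12 to 8.

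Among the sodium channel alpha subunits, Scn1a, Scn2a, Scn3a, Scn7a and Scn9a had lower values in all 3 Bahd1-KO mice than in any Bahd1-WT mouse, while Scn8a overlapped. Scn2a, the alpha subunit of excitatory axons, had the highest level per kb of the alpha subunits, at 33.6 ± 1.97 CPM per kb in Bahd1-WT (SD, n = 3). Its values were 400, 449 and 435 CPM in Bahd1-WT and 325, 215 and 348 CPM in Bahd1-KO. The genotypes did not overlap, and Bahd1-KO replicate 2 was the lowest. The log2 fold change was -0.53 (SE 0.20, adjusted p = 0.114 by edgeR), and -0.35 without Bahd1-KO replicate 2. Scn1a, which serves fast-spiking inhibitory neurons, had 294, 358 and 297 CPM in Bahd1-WT and 235, 180 and 290 CPM in Bahd1-KO. Its highest Bahd1-KO value lay just under the lowest Bahd1-WT value, with a log2 fold change of -0.43 (SE 0.20, adjusted p = 0.173 by edgeR), or -0.27 without Bahd1-KO replicate 2.

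Scn8a, the main alpha subunit of mature initial segments and nodes of Ranvier, had 238, 256 and 241 CPM in Bahd1-WT and 197, 265 and 330 CPM in Bahd1-KO. The Bahd1-KO values lay on both sides of the Bahd1-WT values, and the log2 fold change was 0.11 (SE 0.20, adjusted p = 0.726 by edgeR). The share of Scn8a in the summed CPM per kb of the sodium channel alpha subunits was 19.0%, 18.3% and 18.6% in Bahd1-WT and 19.5%, 31.4% and 26.5% in Bahd1-KO, without overlap. With an offset for GC content and length, described further on, its mean share was 21.3% in Bahd1-WT and 22.6% in Bahd1-KO, and the genotypes overlapped. The share of Scn2a overlapped between genotypes, at 39.4%, 39.6% and 41.6% against 39.9%, 31.5% and 34.6%. The ratio of Scn8a to Scn2a per kb was 0.481, 0.461 and 0.447 in Bahd1-WT and 0.489, 0.996 and 0.768 in Bahd1-KO. For such a ratio of 3 samples against 3, an exact permutation test cannot go below a two-sided p of 0.1.

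Scn3a, an alpha subunit of the developing brain, had 45.5 ± 6.48 CPM in Bahd1-WT and 31.2 ± 7.67 in Bahd1-KO (SD, n = 3), a log2 fold change of -0.54 (SE 0.22). Scn9a, known from nociceptors and hypothalamic neurons, had 9.29, 7.66 and 7.54 CPM in Bahd1-WT and 5.65, 4.20 and 4.92 CPM in Bahd1-KO. Its log2 fold change of -0.73 (SE 0.21, adjusted p = 0.07 by edgeR) was the most negative of the 40 genes without the offset, and was -0.63 without Bahd1-KO replicate 2. With the offset it was -0.25 and the genotypes overlapped, and Cacng6 was the most negative at -0.98. Scn7a, the atypical channel that senses sodium in the circumventricular organs, had 9.59 ± 1.98 CPM in Bahd1-WT and 6.10 ± 1.49 in Bahd1-KO (SD, n = 3), a log2 fold change of -0.66 (SE 0.26). Scn7a is also expressed in lung, and the sum of 4 lung markers was 2.15 to 100 CPM in Bahd1-WT and 0.437 to 1.4 in Bahd1-KO, whose part in the Scn7a values was not tested. Scn1a, Scn2a, Scn3a, Scn7a and Scn9a are neighbours on chromosome 2, between bases 65457118 and 66784914 of GRCm38, and all 5 had negative log2 fold changes. With the offset these were -0.02, -0.12, -0.08, -0.15 and -0.25, and the genotypes overlapped in each of the 5.

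The skeletal muscle gene Scn4a had 3, 3 and 0 counts in Bahd1-WT and 0, 2 and 3 in Bahd1-KO, at or under the floor of 3 counts in each library, so no fold change is given, and its fitted value enters only counts and medians over members. The peripheral pain channels Scn10a and Scn11a stayed under 0.1 CPM per kb in both genotypes and overlapped. The sum of 5 peripheral sensory neuron markers overlapped too, at 47.9 to 53.6 CPM in Bahd1-WT and 40.2 to 58.1 in Bahd1-KO. Of these, Mrgprd was at 3 or fewer counts in every library, and 1 of the 4 tested, Prph, was higher at an unadjusted p under 0.05. Their part in the Scn10a and Scn11a values was not tested.

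**Figure D1:**
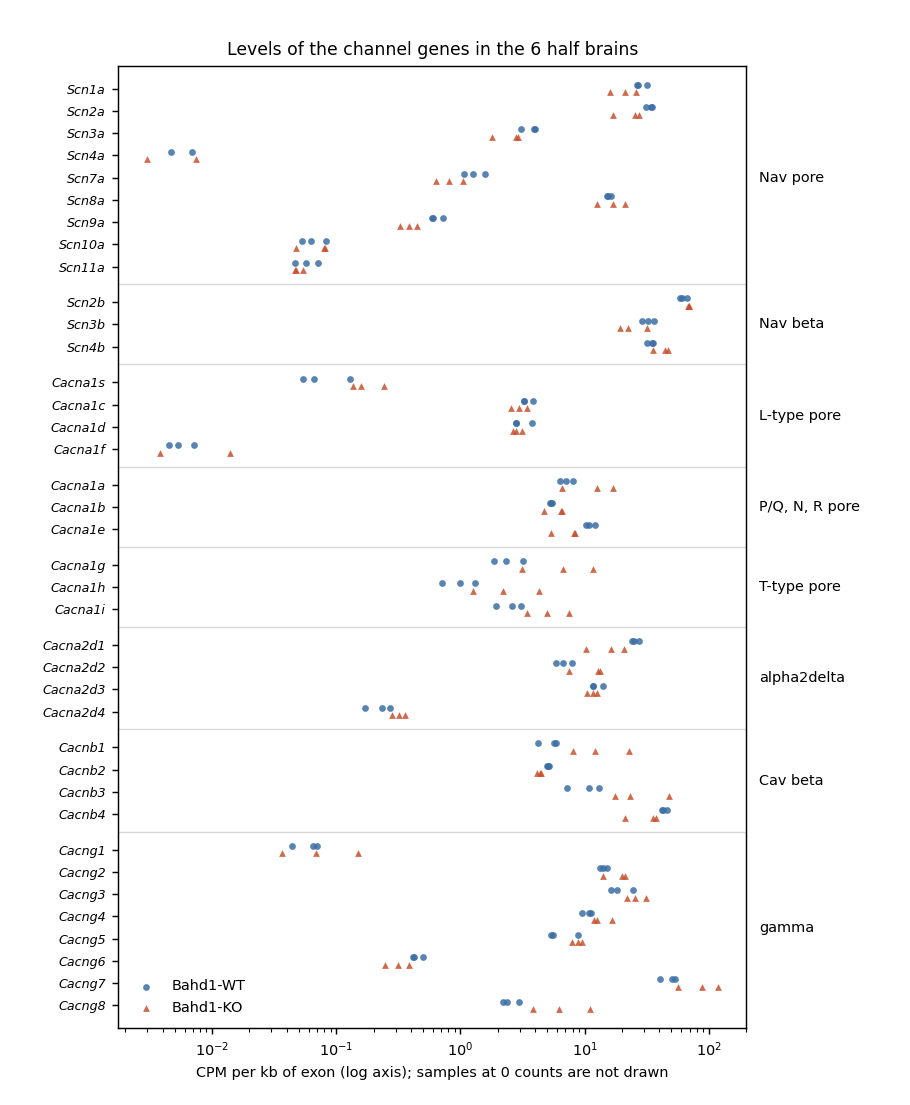
Level of 38 channel genes in each hemisphere, as CPM per kb of exon on a log axis, with circles for the 3 Bahd1-WT and triangles for the 3 Bahd1-KO samples. Scn2b and Cacng7 have the highest levels, Scn4a and Cacna1f lie near the floor, and Bahd1-KO triangles lie left of the circles for Scn2a, Scn9a, Cacna1e and Cacna2d1 and right of them for Cacnb1, Cacnb3 and Cacng8.

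The sodium channel beta subunits are immunoglobulin-like proteins that also act in cell adhesion. Scn2b, which binds alpha subunits through a disulfide bond, had 281, 272 and 313 CPM in Bahd1-WT and 315, 321 and 323 CPM in Bahd1-KO, a log2 fold change of 0.15 (SE 0.14, adjusted p = 0.472 by edgeR). Its genotypes were separate by a small gap. Scn3b had 177 ± 19.6 CPM in Bahd1-WT and 134 ± 35.7 in Bahd1-KO (SD, n = 3), and Scn4b, the subunit linked to resurgent current, had 169 ± 8.32 and 211 ± 31.1, both with overlap.

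The pore subunits of L-type calcium channels were close to even between genotypes where they were abundant. Cacna1c, the neuronal and cardiac L-type pore, had 81.4, 69.3 and 68.8 CPM in Bahd1-WT and 54.0, 63.3 and 72.5 CPM in Bahd1-KO, a log2 fold change of -0.21 (SE 0.17, adjusted p = 0.401 by edgeR). Cacna1d, an L-type pore that opens at less depolarised potentials, had 48.0, 35.4 and 35.2 CPM in Bahd1-WT and 33.6, 35.2 and 39.3 CPM in Bahd1-KO, a log2 fold change of -0.13 (SE 0.18, adjusted p = 0.627 by edgeR). Both overlapped.

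Cacna1s, the L-type pore and voltage sensor of skeletal muscle, was at 0.0832 ± 0.0397 CPM per kb in Bahd1-WT (SD, n = 3). It had 0.841, 0.356 and 0.436 CPM in Bahd1-WT and 0.896, 1.59 and 1.04 CPM in Bahd1-KO. All Bahd1-KO values were higher, and the log2 fold change was 1.10 (SE 0.38, adjusted p = 0.0988 by edgeR), or 0.81 without Bahd1-KO replicate 2. With the offset it was 0.52 (SE 0.29, adjusted p = 0.333 by edgeR), and the genotypes overlapped. All 6 skeletal muscle markers were higher at an unadjusted p under 0.05, beside 19.9% of all genes tested, though Ckm and Tnnt3 overlapped between genotypes. With the offset, Myh4 (unadjusted p = 0.0507 by edgeR) and Tnnt3 (0.119) were no longer under that p. The sum of the 6 markers without the offset was 1.43 to 2.28 CPM in Bahd1-WT and 3.22 to 12.8 in Bahd1-KO. Their part in the Cacna1s values was not tested. The exons of Cacna1s share 20% of their bases with an antisense gene, from which only the strand-specific counting that the study states keeps it apart. Cacna1f, the pore of photoreceptor synapses, had 6, 3 and 3 counts in Bahd1-WT and 0, 12 and 2 in Bahd1-KO. The sum of 5 photoreceptor markers was 0.873 to 1.05 CPM in Bahd1-WT and 0.873 to 1.18 in Bahd1-KO.

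Of the presynaptic pores, Cacna1a and Cacna1e lay on opposite sides without the offset, and on the same side with it, at log2 fold changes of -0.43 and -0.40. Cacna1e, the R-type pore, had 276, 308 and 259 CPM in Bahd1-WT and 210, 136 and 207 CPM in Bahd1-KO. The genotypes did not overlap, and the log2 fold change was -0.61 (SE 0.20, adjusted p = 0.0860 by edgeR), or -0.43 without Bahd1-KO replicate 2. Cacna1a, the P/Q-type pore that drives release at most fast central synapses, had 92.3, 72.2 and 80.5 CPM in Bahd1-WT and 75.0, 192 and 143 CPM in Bahd1-KO. Bahd1-KO replicate 1 lay among the Bahd1-WT values, and the log2 fold change was 0.74 (SE 0.30, adjusted p = 0.136 by edgeR), or 0.43 without Bahd1-KO replicate 2.

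Cacna1b, the N-type pore, overlapped at 53.2 ± 0.653 CPM in Bahd1-WT and 58.7 ± 10.6 in Bahd1-KO (SD, n = 3). The ratio of Cacna1a to Cacna1e per kb was 0.740, 0.518 and 0.686 in Bahd1-WT and 0.788, 3.11 and 1.53 in Bahd1-KO. Cacna1e made up 27.5%, 35.3% and 29.6% of the calcium channel pore level per kb in Bahd1-WT and 25.4%, 9.27% and 17.2% in Bahd1-KO. With the offset both overlapped, with mean ratios of 1.01 and 1.00 and mean shares of 24.4% and 21.8%.

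The T-type pores Cacna1g, Cacna1h and Cacna1i, which support rebound bursts in thalamus and other nuclei, had a median log2 fold change of 1.36, which was -0.03 with the offset. Cacna1g had 32.6, 19.0 and 23.8 CPM in Bahd1-WT and 31.9, 118 and 67.5 CPM in Bahd1-KO. Bahd1-KO replicate 1 was level with Bahd1-WT replicate 1, while replicates 2 and 3 were above all Bahd1-WT samples. The log2 fold change of 1.53 (SE 0.42, adjusted p = 0.0664 by edgeR) was the highest of the 40 genes without the offset, and it was 0.99 without Bahd1-KO replicate 2. Cacna1h had 12.8, 7.0 and 9.79 CPM in Bahd1-WT and 12.4, 42.3 and 21.4 CPM in Bahd1-KO, a log2 fold change of 1.36 (SE 0.42, adjusted p = 0.0783 by edgeR), or 0.79 without replicate 2. It overlapped in the same way as Cacna1g.

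Cacna1i had 30.3, 19.0 and 25.9 CPM in Bahd1-WT and 33.7, 74.0 and 48.8 CPM in Bahd1-KO. Its genotypes did not overlap, and the log2 fold change was 1.06 (SE 0.30, adjusted p = 0.0673 by edgeR), or 0.72 without Bahd1-KO replicate 2. In all 3 T-type genes the order of the libraries from low to high was the same among the Bahd1-KO samples, with replicate 1 lowest and replicate 2 highest, and Bahd1-WT replicate 2 was the lowest of all 6. The share of Cacna1g in the calcium channel pore level per kb was 8.11%, 5.42% and 6.75% in Bahd1-WT and 9.60%, 20% and 13.9% in Bahd1-KO. With the offset its mean share was 8.31% and 12.3%, still without overlap, while the shares of Cacna1h (3.62% and 4.15%) and Cacna1i (8.96% and 9.31%) overlapped.

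**Figure D2:**
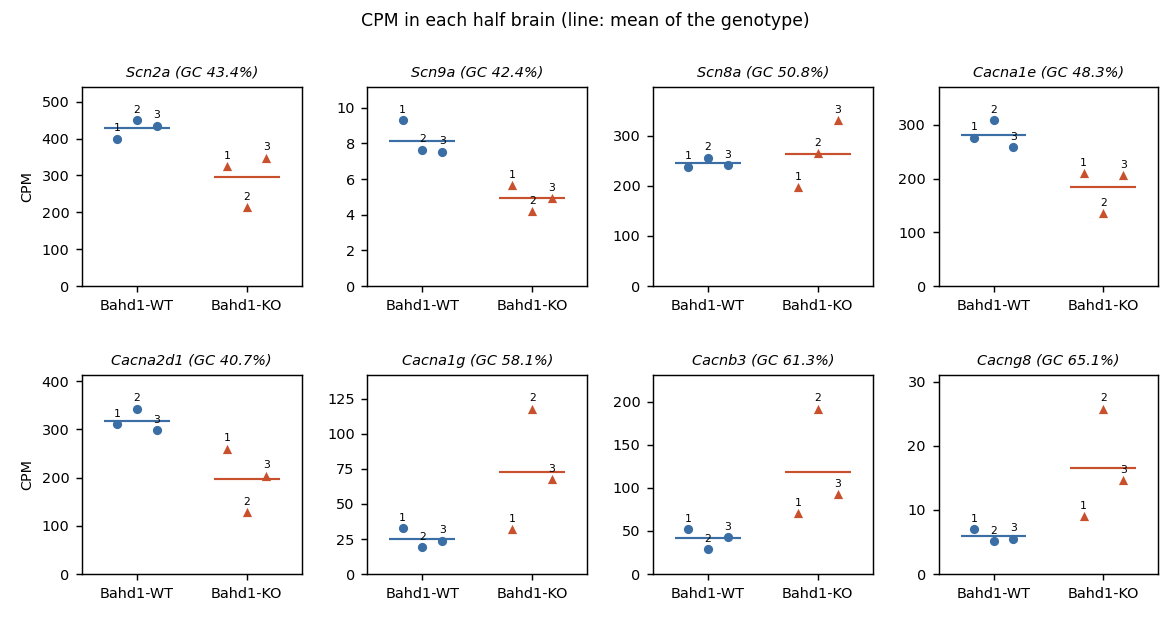
CPM of 8 channel genes in each hemisphere, with the replicate number beside each point, a line at the genotype mean and the GC content of the transcript in the panel title. Bahd1-KO replicate 2 has the lowest value of Scn2a, Scn9a, Cacna1e and Cacna2d1 and the highest of Cacna1g, Cacnb3 and Cacng8.

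The alpha2delta subunits are extracellular proteins that carry calcium channels to the presynaptic membrane and bind gabapentin in the case of Cacna2d1 and Cacna2d2. Without the offset they were split. With it, log2 fold changes were -0.18 for Cacna2d1, -0.12 for Cacna2d2, -0.08 for Cacna2d3 and 0.18 for Cacna2d4. Cacna2d1 had 311, 343 and 299 CPM in Bahd1-WT and 260, 128 and 204 CPM in Bahd1-KO. The genotypes did not overlap, and the log2 fold change was -0.69 (SE 0.24, adjusted p = 0.103 by edgeR), or -0.46 without Bahd1-KO replicate 2. Cacna2d3 had 101, 102 and 123 CPM in Bahd1-WT and 109, 91.2 and 101 CPM in Bahd1-KO, a log2 fold change of -0.11 (SE 0.16, adjusted p = 0.629 by edgeR), with overlap. Cacna2d2, enriched in cerebellum, had 54.4 ± 8.14 CPM in Bahd1-WT and 89.1 ± 25.5 in Bahd1-KO (SD, n = 3), a log2 fold change of 0.71. Cacna2d4, a retinal subunit, had 2.13 ± 0.479 and 3.04 ± 0.381 CPM. The share of Cacna2d1 in the family per kb was 56.0%, 60.9% and 53.3% in Bahd1-WT and 50.9%, 30.0% and 39.8% in Bahd1-KO, with means of 49.5% and 47.9% and overlap after the offset.

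The cytoplasmic beta subunits of calcium channels lay on both sides within a single family without the offset. With it, log2 fold changes were 0.05 for Cacnb1, 0.43 for Cacnb2, 0.00 for Cacnb3 and 0.03 for Cacnb4. Cacnb3 had 52.0, 29.2 and 43.1 CPM in Bahd1-WT and 70.5, 192 and 92.6 CPM in Bahd1-KO. All Bahd1-KO values were above all Bahd1-WT values, with a log2 fold change of 1.51 (SE 0.37, adjusted p = 0.0634 by edgeR), or 0.98 without Bahd1-KO replicate 2. Cacnb1, the beta subunit of skeletal muscle that is also made in brain, had 25.6, 19.1 and 26.8 CPM in Bahd1-WT and 36.3, 103 and 54.7 CPM in Bahd1-KO. It did not overlap either, with a log2 fold change of 1.44 (SE 0.35, adjusted p = 0.0634 by edgeR), or 0.94 without replicate 2.

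Cacnb4, whose loss causes ataxia and seizures in the lethargic mouse, was the most abundant beta subunit, at 43.7 ± 1.94 CPM per kb in Bahd1-WT (SD, n = 3). It had 379, 411 and 384 CPM in Bahd1-WT and 317, 191 and 335 CPM in Bahd1-KO. All Bahd1-KO values were lower, with a log2 fold change of -0.48 (SE 0.22, adjusted p = 0.166 by edgeR), or -0.27 without replicate 2. The exons of Cacnb4 share 16% of their bases with a gene on the opposite strand. Cacnb2 was 67.3 ± 1.72 CPM in Bahd1-WT and 57.0 ± 1.78 in Bahd1-KO (SD, n = 3), also without overlap, with a log2 fold change of -0.24 (SE 0.14, adjusted p = 0.255 by edgeR). The ratio of Cacnb3 to Cacnb4 per kb was 0.307, 0.159 and 0.251 in Bahd1-WT and 0.498, 2.24 and 0.617 in Bahd1-KO. Cacnb4 made up 64.0%, 73.4% and 66.5% of the family in Bahd1-WT and 54.3%, 22.1% and 48.6% in Bahd1-KO, with means of 55.9% and 54.7% and overlap after the offset. Summed over the family, beta subunits per pore subunit overlapped, at 1.66, 1.81 and 1.86 in Bahd1-WT and 1.99, 1.66 and 1.61 in Bahd1-KO.

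**Figure D3:**
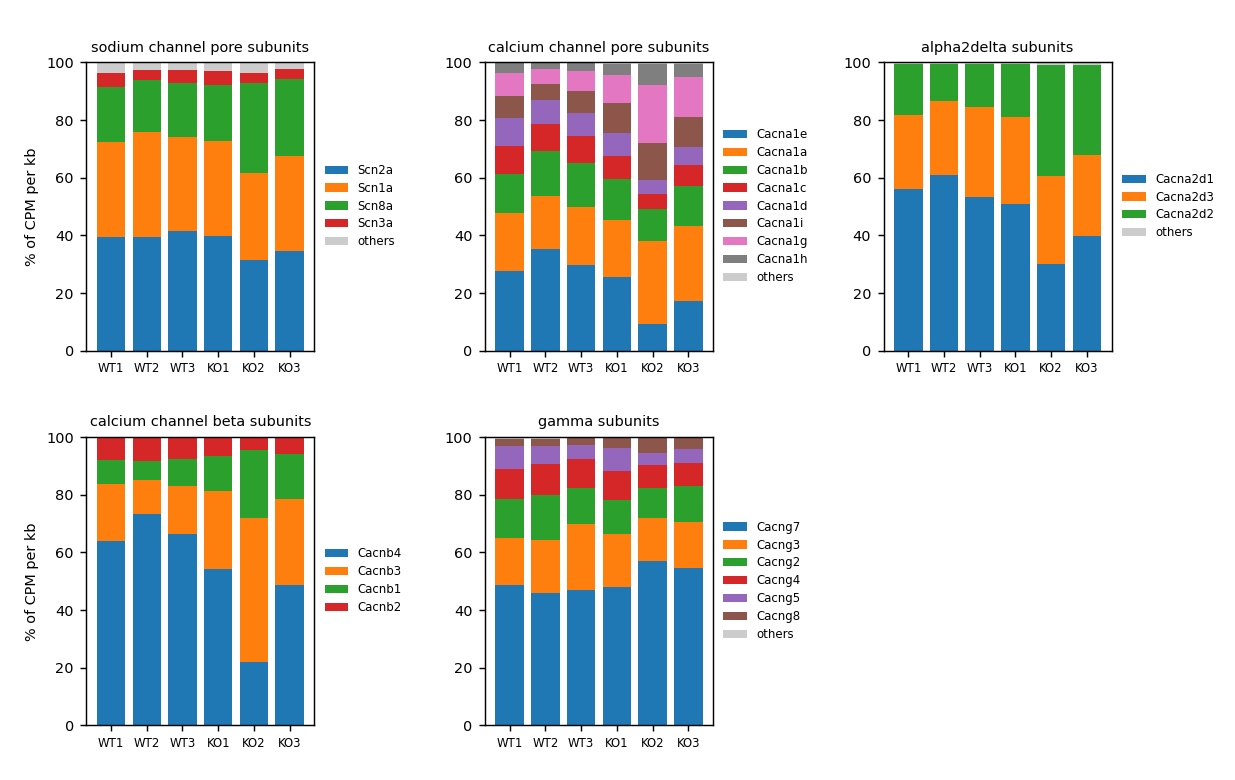
Share of each gene in the summed CPM per kb of its subunit family, in percent, for 5 families, for Bahd1-WT (WT) and Bahd1-KO (KO) replicates 1 to 3, with members under 2% in both genotypes pooled as others. Bahd1-KO replicate 2 stands apart, with 22.1% for Cacnb4 against 64.0% to 73.4% in Bahd1-WT and 9.27% for Cacna1e against 27.5% to 35.3%.

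Of the 8 gamma subunits, 7 had a positive log2 fold change, of which 2 had an unadjusted p under 0.05, beside 19.9% of all genes tested. With the offset, 2 of the 8 were positive and 6 negative, and 0 were higher and 3 lower at that p, beside 9.89% and 11.4% of all genes. Cacng8, an AMPA receptor partner of hippocampus, had 6.95, 5.18 and 5.54 CPM in Bahd1-WT and 9.03, 25.8 and 14.6 CPM in Bahd1-KO. The genotypes did not overlap, and the log2 fold change was 1.48 (SE 0.36, adjusted p = 0.0634 by edgeR), or 1.01 without Bahd1-KO replicate 2. A microRNA gene lies within its exons on the same strand and covers 3.88% of their bases. Cacng7, the most abundant gamma subunit, had 131, 99.6 and 123 CPM in Bahd1-WT and 139, 289 and 214 CPM in Bahd1-KO. It did not overlap, with a log2 fold change of 0.86 (SE 0.26, adjusted p = 0.0742 by edgeR), or 0.59 without replicate 2.

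Cacng3, a cortical AMPA receptor partner, had 50.4, 45.3 and 68.0 CPM in Bahd1-WT and 61.3, 87.1 and 71.4 CPM in Bahd1-KO, a log2 fold change of 0.43 (SE 0.21, adjusted p = 0.190 by edgeR). It overlapped. Cacng2 (stargazin), the partner that brings AMPA receptors to cerebellar synapses, had 78.0 ± 4.58 CPM in Bahd1-WT and 101 ± 21.0 in Bahd1-KO (SD, n = 3). Cacng4 and Cacng5 had log2 fold changes of 0.38 and 0.41. The rare Cacng6 was on the other side, at 0.882 ± 0.0921 CPM in Bahd1-WT and 0.621 ± 0.137 in Bahd1-KO (SD, n = 3), without overlap. Cacng7, Cacng8 and Cacng6 lie side by side within 103 kb of chromosome 7, between bases 3332955 and 3435667 of GRCm38, so neighbours in the genome differed in sign, although all 3 were negative with the offset, at -0.29, -0.36 and -0.98. The muscle subunit Cacng1 had 8, 5 and 4 counts in Bahd1-WT and 2, 18 and 5 in Bahd1-KO.

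Set side by side, pore subunits were centred on 0.00 (median log2 fold change), with 10 positive and 10 negative, and auxiliary subunits a median of 0.40, with 14 positive and 6 negative. At an unadjusted p under 0.05, 6 pore subunits were higher and 5 lower, and 6 auxiliary subunits were higher and 1 lower, beside 19.9% and 12% of all genes tested. With the offset, the median was -0.14 over the pore subunits, with 4 positive and 16 negative, and -0.15 over the auxiliary subunits, with 8 positive and 12 negative. At an unadjusted p under 0.05, 1 pore subunit was then higher and 3 lower, and 1 auxiliary subunit was higher and 5 lower, beside 9.89% and 11.4% of all genes. The median GC content was 51.8% for pore and 53.7% for auxiliary subunits. Sodium channel alpha subunits, at a median GC content of 45.7%, were centred on a log2 fold change of -0.33, and calcium channel pore subunits, at 53.8%, of 0.50. These medians were -0.13 and -0.18 with the offset.

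**Figure D4:**
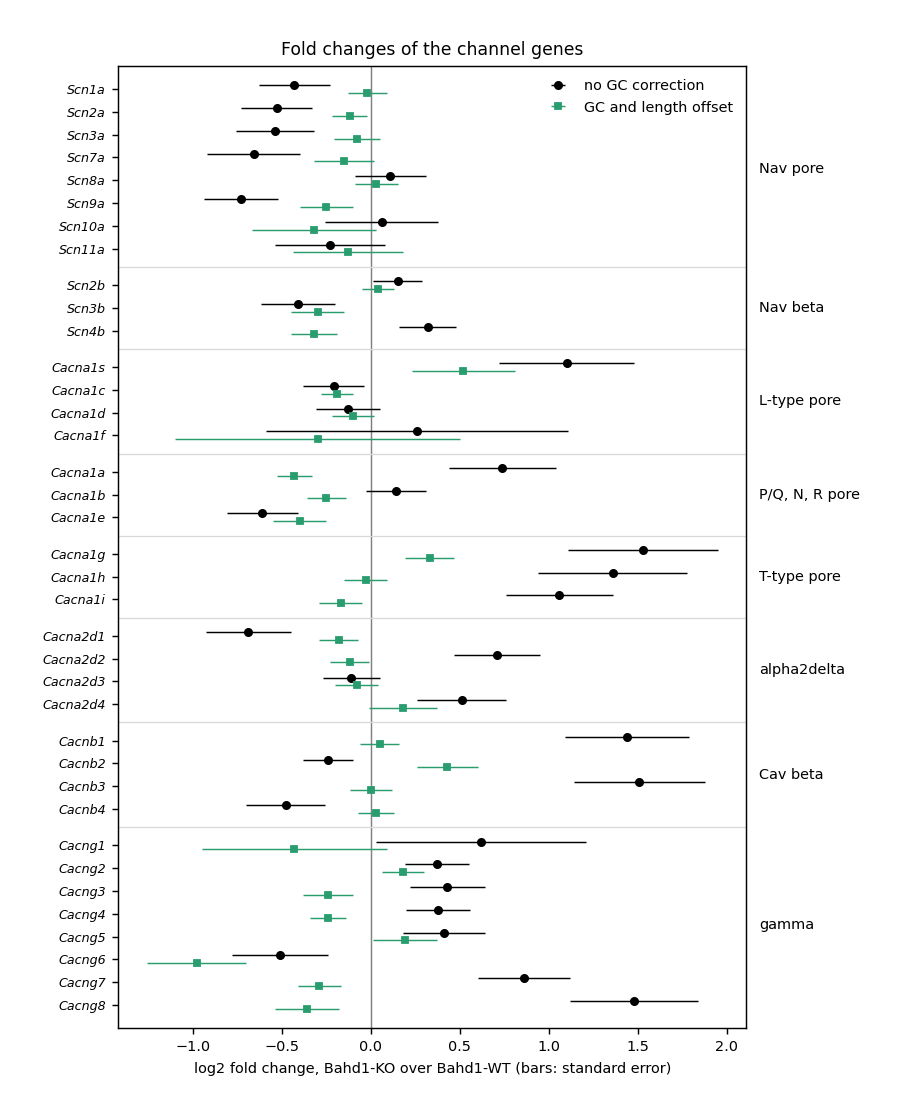
Log2 fold change (Bahd1-KO over Bahd1-WT) of 37 channel genes above the floor of 3 counts, by subunit group, with the standard error as a bar, without correction (circles) and after a GC and length offset (squares). The circles spread from -0.73 to 1.53, while the squares of Cacnb1, Cacnb3 and Cacna1h lie near 0 and 15 genes change side, Cacna1a, Scn4b and Cacnb2 among them.

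The log2 fold changes of the members followed the base composition of their transcripts. The GC content of the longest transcript was 42.4% in Scn9a, 43.3% in Scn1a and 43.4% in Scn2a, 50.8% in Scn8a, and 58.1% in Cacna1g, 61.3% in Cacnb3 and 65.1% in Cacng8. All 12 members with a GC content of at least 55% had a positive log2 fold change, with a median of 1.09, and the median over all 4507 genes tested in that range was also 1.09. Between 50% and 55%, 12 of 15 members were positive, with a median of 0.26 against 0.30 over 5847 genes. Between 45% and 50%, all 5 members were negative, with a median of -0.23 against -0.19 over 6517 genes. Under 45%, all 8 were negative, with a median of -0.54 against -0.50 over 7069 genes. Across the 40 members, Spearman's rho between GC content and log2 fold change was 0.90, as a description over genes that share the same 6 libraries, and 0.81 over the 39 genes tested without Bahd1-KO replicate 2. For pore and auxiliary subunits apart it was 0.92 and 0.89, with 20 genes each. Between exon length and log2 fold change it was -0.45 over the 40 members.

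The single libraries followed the same order. Over the 11 members with a GC content of at least 55% and a mean of at least 1 CPM, the median log2 level relative to the mean of the 6 libraries was -0.43, -1.04 and -0.71 in Bahd1-WT and -0.26, 1.07 and 0.33 in Bahd1-KO. Over the 8 members under 45% it was 0.22, 0.26 and 0.19 in Bahd1-WT and -0.12, -0.72 and -0.11 in Bahd1-KO. The same medians over all genes of at least 55% were -0.43, -0.85 and -0.62 in Bahd1-WT and -0.21, 0.95 and 0.23 in Bahd1-KO. All 12 GC-rich members were highest in Bahd1-KO replicate 2, and 7 of the 8 members under 45% were lowest there. The genotypes did not overlap in 7 of the 12 GC-rich members, all higher in Bahd1-KO, and in all 8 members under 45%, all lower. Of all genes tested, 60.5% of those with a GC content of at least 55% were higher without overlap, and 43% of those under 45% were lower without overlap.

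**Figure D5:**
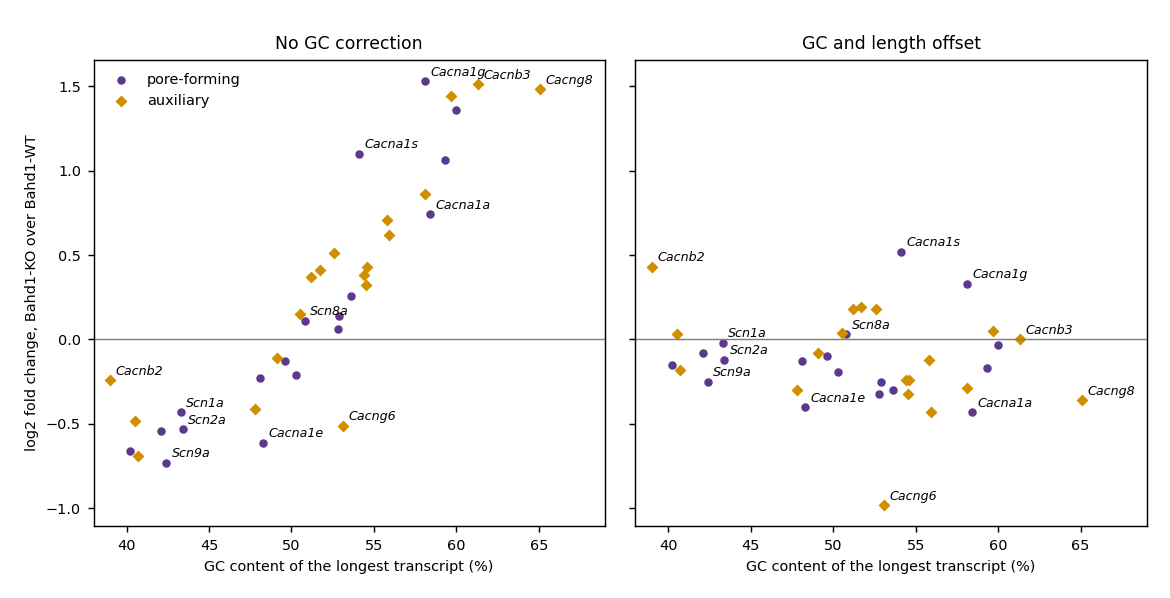
GC content of the longest transcript in percent against the log2 fold change (Bahd1-KO over Bahd1-WT) of 37 channel genes above the floor of 3 counts, pore-forming subunits as circles and auxiliary subunits as diamonds, without correction (left) and after the GC and length offset (right). On the left, values climb from about the level of Scn9a (-0.73) to that of Cacnb3 (1.51) with GC content. On the right, Spearman's rho is -0.20 over all 40, 0.02 over the pore-forming and -0.47 over the auxiliary subunits. The offset takes out each library's trend over GC content, so the loss of the upward slope follows from how it is built.

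An offset that removes each library's own trend over GC content and length was then added to the edgeR fit. It takes no account of genotype, so any difference between genotypes that follows GC content is removed with it, whatever its source. Values with the offset therefore cannot tell a technical trend from a trend due to the knockout. With it, the median log2 fold change of the members was -0.14, with 12 positive and 28 negative. At an unadjusted p under 0.05, 2 members were higher and 8 lower, against 9.89% and 11.4% of all genes tested. No member was a DEG by edgeR, and DESeq2 with the normal prior and the offset called 0 members, where 0.505% of all genes were called higher. Cacnb3 went from 1.51 to 0.00 (SE 0.12), Cacnb1 from 1.44 to 0.05 (SE 0.11) and Cacna1h from 1.36 to -0.03 (SE 0.12). Scn1a went from -0.43 to -0.02 (SE 0.11), Scn2a from -0.53 to -0.12 (SE 0.10) and Cacnb4 from -0.48 to 0.03 (SE 0.10).

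Other members lay away from 0 with the offset, on the same or on the opposite side. Cacna1a went from 0.74 to -0.43 (SE 0.10, adjusted p = 0.0817 by edgeR), with all Bahd1-KO values then below all Bahd1-WT values. All 3 presynaptic pores were then lower at an unadjusted p under 0.05, beside 11.4% of all genes tested. The log2 fold changes were -0.43 for Cacna1a, -0.25 for Cacna1b and -0.40 for Cacna1e, with adjusted p of 0.0817, 0.212 and 0.168 by edgeR. Cacnb2 went from -0.24 to 0.43 (SE 0.17, adjusted p = 0.190 by edgeR). Its CPM with the offset were 55.5, 52.1 and 54.7 in Bahd1-WT and 57.0, 96.1 and 65.4 in Bahd1-KO, so Bahd1-KO replicate 2 was the farthest from Bahd1-WT. The longest transcript of Cacnb2, which the offset uses, has a GC content of 39.0%, and its coding sequence 50.5%. Cacna1g went from 1.53 to 0.33 (SE 0.14, adjusted p = 0.214 by edgeR), and its genotypes overlapped. Cacng6 went from -0.51 to -0.98 (SE 0.28, adjusted p = 0.0979 by edgeR), without overlap in either fit. By DESeq2 with the normal prior and the offset, the adjusted p was 0.00882 for Cacna1a and 0.0321 for Cacng6, each with a change of under 2-fold. The sign for Cacna1a therefore depended on the offset.

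The ratios between members moved in the same way. After the offset, Cacnb3 to Cacnb4 was 0.483, 0.394 and 0.489 in Bahd1-WT and 0.523, 0.464 and 0.373 in Bahd1-KO, and Scn8a to Scn2a was 0.536, 0.597 and 0.515 against 0.525, 0.661 and 0.649. Both overlapped. The calcium channel beta to pore ratio, which overlapped before, was 1.55, 1.42 and 1.65 in Bahd1-WT and 1.80, 1.89 and 1.93 in Bahd1-KO after the offset, without overlap.

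Other genes were read from a list of 39, of which 37 were tested. Of those tested, 11 anchor or modulate sodium channels, 17 modulate calcium channels, and 9 encode other, related cation channels or their subunits, such as Nalcn and the Catsper and Tpcn genes. None was a DEG by edgeR, 10 were higher and 3 lower at an unadjusted p under 0.05 (3 and 2, 5 and 0, and 2 and 1 in these sets), and the median log2 fold change was 0.07, where 19.9% and 12% of all genes tested were higher and lower at that p. By DESeq2 with its prior, 5 of them were DEGs, all higher, beside 9.61% of all genes. With the offset, 2 were higher and 2 lower at an unadjusted p under 0.05, beside 9.89% and 11.4% of all genes, and DESeq2 called 0, where it called 0.505% of all genes higher. The 6 with the lowest p are given here. Sptbn4, the spectrin under the initial segment where sodium channels gather, had 21.5, 14.1 and 15.6 CPM in Bahd1-WT and 26.6, 146 and 53.6 CPM in Bahd1-KO, a log2 fold change of 2.15 (SE 0.54, adjusted p = 0.0634 by edgeR) that was 1.24 without Bahd1-KO replicate 2 and 0.24 with the offset. Rangrf, which helps sodium channels reach the membrane, had 1.54, 0.956 and 1.46 CPM against 2.83, 4.56 and 2.61 CPM, a log2 fold change of 1.34 that was 0.98 with the offset.

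Rrad, a small GTPase that restrains calcium channels through their beta subunits, had a log2 fold change of 1.5 and Stac2, an adaptor of L-type channels, had 1.15, which were 0.24 and 0.00 with the offset. Calm3, a calmodulin gene, had 1.01 and Cabp1, a calmodulin-like regulator, 1.16, which were -0.16 and 0.74 with the offset. Without Bahd1-KO replicate 2 and without the offset, log2 fold changes were 1.14 for Rrad, 0.76 for Stac2, 0.69 for Calm3 and 0.62 for Cabp1. Of the scaffold genes, Ank3, which encodes ankyrin-G of the initial segment, had 413, 391 and 401 CPM in Bahd1-WT and 320, 352 and 452 CPM in Bahd1-KO, with overlap.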

How the data were processed

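Poly(A) RNA of a hemisphere from 3 Bahd1-KO and 3 Bahd1-WT mice was sequenced, and groups and replicate numbers were taken from the sample titles. Per the submitters' processing notes, tools included cutadapt 1.11, STAR 2.5.0a and featureCounts 1.4.6-p3 with GRCm38. Tophat2 is named beside STAR in the supplementary methods. The authors deposited whole-number read counts per gene, without normalization, for 53801 genes, with 1 column per mouse, although the paper speaks of technical replicates. The table held 0 columns of samples from elsewhere.

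The filter kept the 23975 genes whose counts added up to 10 or more. The test was edgeR 4.0.16 (R 4.3.3) with TMM, a quasi-likelihood fit and test on genotype, and Benjamini-Hochberg adjustment over all genes tested. A DEG had an adjusted p under 0.05 and a fold change of at least 2. Alternatives were DESeq2 1.42.0 with and without its normal prior, other scalings and filters, leaving out each sample, a replicate block, and an offset. For the offset, log2 CPM was fitted in each library over 13251 genes with natural splines, using 5 degrees of freedom for transcript GC content and 3 for log length. DESeq2 with the prior and the offset, or without Bahd1-KO replicate 2, was added after the data were seen. GC content, exon length and coordinates came from GENCODE M21. The fits were also run on simulated counts that held no trend over GC content, so that run does not test them under the trend of these libraries.

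The 40 members, the pathway list and the marker lists were chosen with earlier results of these data known. Members are named, apart from results that are not reported here, with values per sample for the 2 most abundant of each group and for those with an unadjusted p under 0.05 and at least 2-fold, and the pathway genes by the 6 lowest p; further values were added after they were seen. Depth was 42297150 to 93557948 counts, and a floor of 3 counts per library reflects counting error alone, as PCR copies of a molecule are counted separately.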

Additional observations from a re-analysis of the deposited data

How the results depend on the processing

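The number of members called as DEGs was 0 with edgeR and its TMM, DESeq2-type or upper-quartile factors, 5 with total counts, 8 without the filter on low counts, and 9 and 8 with DESeq2 without and with its prior. The calls over all genes tested were 2, 2 and 2 with these edgeR factors, then 2007 (8.37%), 2770 (8.45%), 2761 (11.5%) and 2522 (10.5%). Every member called was higher in Bahd1-KO. With any GC and length offset it was 0. Over all genes, edgeR with the offset called 4, or 9 with the replicate block, and DESeq2 called 528 (2.2%) without and 170 (0.709%) with its prior. It ranged from 0 to 11 when a sample was left out, with 11 without Bahd1-KO replicate 1 (3988 over all genes), and was 0 with DESeq2 and its prior without Bahd1-KO replicate 2 (754 over all genes). Members higher at an unadjusted p under 0.05 (12) were 2 with the offset, 1 with the offset and the replicate block, and 2 and 2 with DESeq2 and the offset. They were 8 without Bahd1-WT replicate 2, and ranged from 8 to 17. Members lower (6) were 3 with total counts and 11 with upper-quartile factors, and ranged from 2 without Bahd1-WT replicate 2 to 8. Upper-quartile factors put the median of all genes at -0.20, against -0.06.

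The labels state no pairing of same-numbered mice. Their deviations from the genotype means correlated at -0.577, -0.61 and -0.137, and those of differently numbered mice at -0.0714 to 0.596. As the deviations within a genotype offset each other, these correlations cannot exclude a pairing. The replicate block called 0 members and gave 11 higher and 5 lower at an unadjusted p under 0.05. Its only change of sign was Cacna1f (-0.07).

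The offset turned the sign of 15 log2 fold changes of members given here. With edgeR these became -0.32 for Scn10a, -0.32 for Scn4b, -0.30 for Cacna1f, -0.43 for Cacna1a, -0.25 for Cacna1b, -0.03 for Cacna1h, -0.17 for Cacna1i, -0.12 for Cacna2d2, 0.43 for Cacnb2, 0.03 for Cacnb4, -0.43 for Cacng1, -0.24 for Cacng3, -0.24 for Cacng4, -0.29 for Cacng7 and -0.36 for Cacng8. With the replicate block added they were -0.34 for Scn10a, -0.33 for Scn4b, -0.63 for Cacna1f, -0.43 for Cacna1a, -0.25 for Cacna1b, -0.03 for Cacna1h, -0.18 for Cacna1i, -0.12 for Cacna2d2, 0.39 for Cacnb2, 0.02 for Cacnb4, -0.54 for Cacng1, -0.22 for Cacng3, -0.24 for Cacng4, -0.30 for Cacng7 and -0.38 for Cacng8. DESeq2 without the prior gave values within 0.01 of edgeR's with the offset, except -0.47 for Cacna1f and -0.48 for Cacng1, with -0.31 for Scn4b. With the prior they were -0.22 for Scn10a, -0.30 for Scn4b, -0.09 for Cacna1f, -0.41 for Cacna1a, -0.24 for Cacna1b, -0.03 for Cacna1h, -0.16 for Cacna1i, -0.11 for Cacna2d2, 0.39 for Cacnb2, 0.02 for Cacnb4, -0.16 for Cacng1, -0.22 for Cacng3, -0.23 for Cacng4, -0.28 for Cacng7 and -0.33 for Cacng8.

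Upper-quartile factors gave -0.04 for Scn8a, -0.09 for Scn10a and -0.01 for Cacna1b. DESeq2 with the prior and without Bahd1-KO replicate 2 gave -0.04 for Scn10a, -0.26 for Cacna1f and -0.04 for Cacng1. Leaving out samples changed a sign in 5 genes, with ranges of -0.07 to 0.31 for Scn8a, -0.08 to 0.28 for Scn10a, -0.21 to 0.03 for Cacna1d, -1.35 to 0.73 for Cacna1f and -0.13 to 0.95 for Cacng1. The cause of these changes was not tested. At 42297150 to 93557948 counts per library, depth limits Scn4a, Cacna1f and Cacng1, which have at most 18 counts in a library, and to a lesser extent Scn11a, with 14 to 27.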
